A study of Chlorocebus aethiops with 3 samples.

Results

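Histone chaperones are proteins that bind histones outside the nucleosome and hand them to DNA or to one another. The messages described here are those of NAP1L1, NAP1L3 and NAP1L4 of the nucleosome assembly protein family, SET of the same fold, ASF1A and ASF1B, and NASP. They were chosen by RefSeq accession: NAP1L1 by 2 accessions and each other gene by 1, 8 in all. NAP1L1 was picked because its probe had the largest fall among RefSeq mRNAs on these arrays, and the others because they belong with it by function. The scanner files carry accessions and no gene names, so the gene names are those given with the list. Of the 8 accessions, 7 matched, out of 32695 sequence names on the array, and they gave 10 of its 41000 probes. No probe matched NM_002482 (NASP), and NASP is not analysed here.

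The RNA came from heavy polysomes, the sucrose gradient fractions where messages with many ribosomes sediment, of COS-7 cells, a fibroblast-like line from African green monkey kidney made with SV40. In the knockdown group the cells had received siRNAs at 0.5 nM against coding nucleotides 2701 to 2721 and 2784 to 2803 of human RNA helicase A (RHA, the DHX9 gene product). The control group had received scrambled siRNA. Both groups were transfected on 2 occasions, each with 4 hours free of serum and then 24 hours in medium with 10% serum. On each of 3 two-colour arrays, described as biological replicates 1 to 3, knockdown RNA was in the red Cy5 channel and control RNA in the green Cy3 channel. The array probes were designed on human sequence, and how well each matches the monkey message was not tested.

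NAP1 proteins carry H2A and H2B and shuttle between cytoplasm and nucleus. ASF1 proteins pass H3 and H4 to the assembly factors that act with and without DNA replication, and ASF1B is the form most tied to proliferating cells. SET binds histones, inhibits histone acetylation and inhibits the phosphatase PP2A. The NAP1L1 message belongs to the 5' TOP class, whose first bases are an oligopyrimidine run and whose ribosome loading follows growth signals through mTORC1. RHA unwinds structured RNA, and some messages with a structured 5' end are known to need it for their translation.

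All values below are log2 ratios of knockdown over control, red over green, after loess normalization of each array, unless another scale is named. Of 18143 probes tested with limma over the whole array, 18.4% were called at a Benjamini-Hochberg adjusted p under 0.05, 9.72% as risen and 8.65% as fallen. The median ratio of the tested probes was 0.018. Centring each array on all its probes, in place of loess, moved that median to 0.30 and the share of calls that were upward from 52.9% to 98.4%. With centring on the tested probes the share was 74.2%. A ratio does not tell a lower abundance of a message from lower ribosome loading, or less message per cell from fewer cells that carry it. The dyes had the same orientation on all 3 arrays, so dye and knockdown cannot be told apart. The 2 tested RHA probes had mean ratios of -0.28 and -0.33, which turned to 0.26 and 0.068 with centring on all probes, and neither passed the test (limma adjusted p = 0.217 and 0.210).

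Of the 10 chaperone probes, 6 passed the filter on dim signals, which asked for a channel well above background on every array, and were tested. They measure NAP1L1, NAP1L4, SET, ASF1A and ASF1B. The messages of SET and ASF1B were called lower in the heavy polysomes of knockdown cells, and those of NAP1L4 and ASF1A did not pass the test. The NAP1L1 message was lower on each array, which is a description without a test, since these values chose it. Of the 5 tested probes other than NAP1L1, 3 were called fallen and 0 risen, where 8.65% and 9.72% of all tested probes were. At an unadjusted p under 0.05 limma had 0 risen and 3 fallen among the 5 tested probes other than NAP1L1, and 3320 risen and 3064 fallen among all 18143. NAP1L1 was chosen for its fall and is left out of these counts of member probes. The others were listed beside it with results of the same comparison known, so nothing is read from the counts. The median ratio was -0.61 over the 6 tested probes and -0.60 without NAP1L1.

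**Figure D1:**
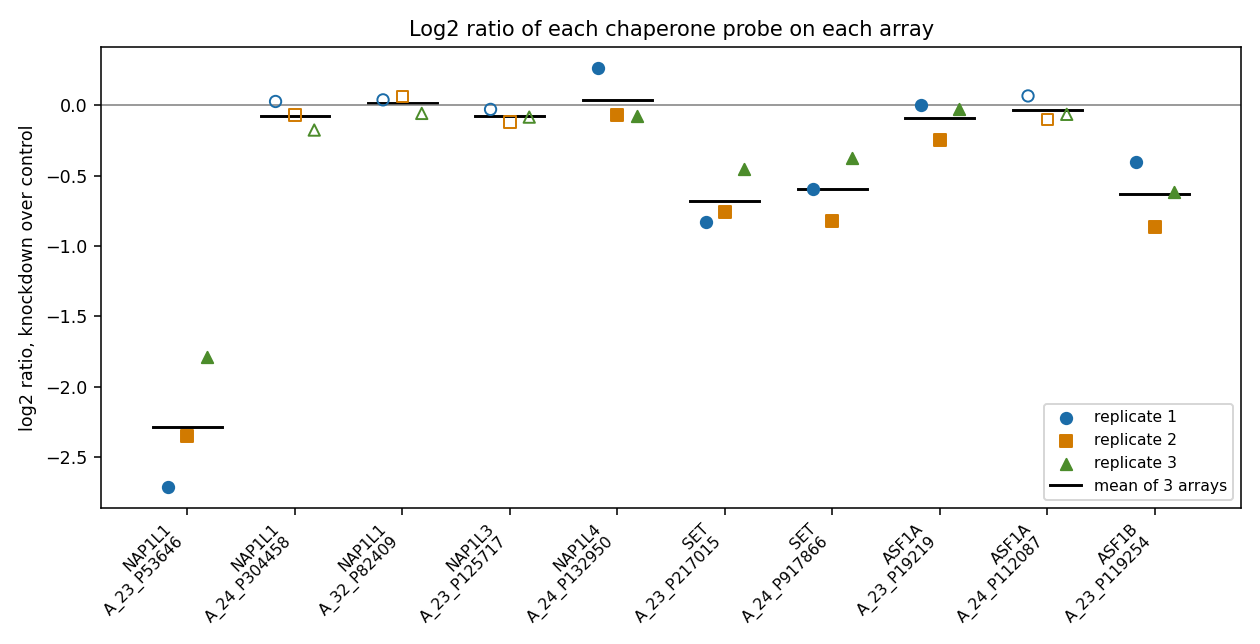
Log2 ratio of knockdown over control (vertical axis) for the 10 chaperone probes (horizontal axis) on replicates 1, 2 and 3, with the mean as a bar; filled symbols are tested probes and open symbols probes that were too dim. NAP1L1 probe A_23_P53646 lies at -2.71, -2.35 and -1.79, both SET probes and ASF1B lie between -0.86 and -0.37, and the other probes lie between -0.24 and 0.26.

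NAP1L1 was measured well by 1 of its 3 probes. Probe A_23_P53646, listed under NM_139207, gave clear signals on all arrays in control and knockdown alike. Its control signal was 1381, 811 and 3268 on replicates 1, 2 and 3, over local backgrounds of 27 or 28. Its knockdown signal was 393, 452 and 2684, over backgrounds of 55, 53 and 55.5. The knockdown signal was thus the lower of the pair on every array before any correction, although the red channel was the brighter one for most probes: before normalization the tested probes had median log2 ratios of 0.58, 0.88 and 1.26, against -1.82, -0.87 and -0.26 for NAP1L1. Replicate 3 was the brightest array in both channels.

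After normalization the ratios of this NAP1L1 probe were -2.71, -2.35 and -1.79. Their mean was -2.28 ± 0.46 (SD, n = 3), and the message stood at 0.205 times control. These values chose the gene and are given as a description. It held the lowest mean ratio of all 18143 tested probes, and counted from the lowest it ranked 6, 1 and 5 on replicates 1, 2 and 3. With centring on all probes the NAP1L1 ratio was nearest 0 on replicate 2, at -1.23. After loess it was nearest 0 on replicate 3, where the ratios of all tested probes also spread least. Their SD was 0.61, 0.48 and 0.43 on replicates 1, 2 and 3, and in units of that SD the NAP1L1 ratio was -4.42, -4.95 and -4.13.

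Scaled per channel, with average brightness made equal between arrays, the control values of the NAP1L1 probe were 11.43, 11.02 and 11.35 and the knockdown values 8.72, 8.67 and 9.56 on the log2 scale. The 2 groups did not overlap, which also held for both tested RHA probes, neither of which passed the test. The spread between arrays was larger in knockdown (SD 0.50) than in control (SD 0.22), with the knockdown value of replicate 3 above the other two. The difference between those SDs was not tested.

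**Figure D2:**
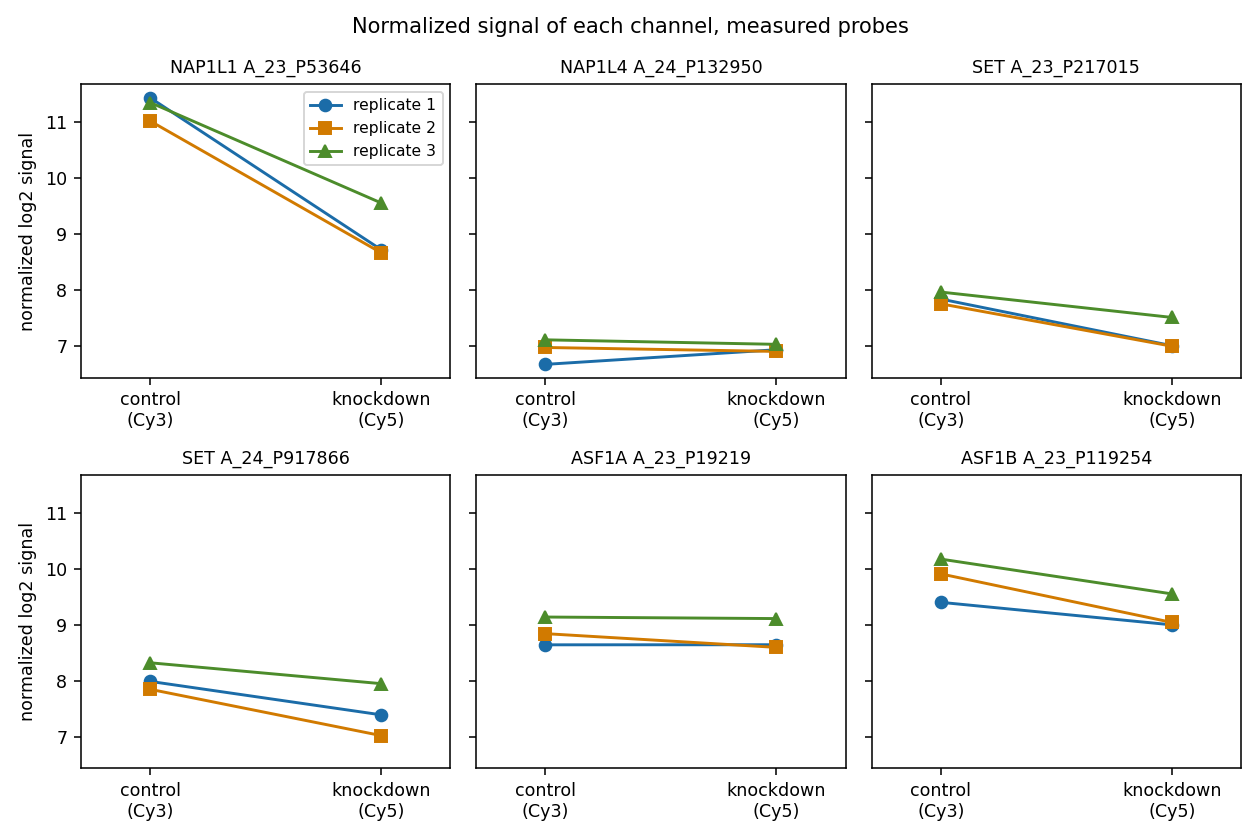
Normalized log2 signal (vertical axis) in the control channel and in the knockdown channel for the 6 tested probes, 1 line for each replicate. NAP1L1 drops on all 3 arrays, from between 11.02 and 11.43 to between 8.67 and 9.56; the SET and ASF1B lines slope down less, and those of NAP1L4 and ASF1A are nearly level.

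The other accession of NAP1L1, NM_004537, has 2 probes, and both were dim. Probe A_24_P304458 had control signals of 29, 31 and 45.5 over backgrounds of 25, 29 and 28, and knockdown signals of 71, 67 and 77.5 over 57, 62 and 54. It was well above background only in the control channel of replicate 3. Its ratios were 0.026, -0.071 and -0.18, in that order of replicates. Probe A_32_P82409 was not well above background in any channel, with control signals of 25 to 29 over backgrounds of 26 to 27, and its ratios were 0.037, 0.059 and -0.059. Neither dim probe gives a size for the change of NAP1L1, since ratios at background signals are pulled toward 0 by the offset used. The description of NAP1L1 therefore rests on 1 probe. The files do not say which part of the message each probe matches.

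NAP1L1 was chosen as the first in the order of falls among 10826 RefSeq mRNA accessions, where the brightest tested probe stood for each. Places after NAP1L1 went only to mRNAs that were called fallen and lay below 0 on all 3 arrays. Next after it came NM_001126132, for which the files give no gene name, at -2.24, -1.94 and -1.79 on the 3 arrays, on average -1.99 ± 0.23 (SD, n = 3). The same accession had the ratios most like those of NAP1L1 over the 3 arrays, at a Euclidean distance of 0.62 among 10821 accessions that are not chaperone members. NM_133467 came next at 0.79, with -2.13, -1.83 and -1.94. Likeness over 3 arrays of 1 comparison says little more than that these are the next largest falls.

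Of the other NAP1 family members, NAP1L4 is broadly expressed and NAP1L3 is best known from brain. NAP1L4 was measured by probe A_24_P132950, whose knockdown signal was well above background on 3 arrays and whose control signal on 2. Its control signals were 37, 49 and 114.5 over backgrounds of 25, 30 and 32, and its knockdown signals 114, 125 and 252 over 54.5, 58.5 and 64. The ratios were 0.26, -0.070 and -0.080, averaging 0.037 ± 0.19 (SD, n = 3). Replicate 1 lay above 0, and it was the array where the control channel was not well above background. The groups overlapped, and NAP1L4 did not pass the test (limma adjusted p = 0.848), with a 95% interval of the ratio from -0.26 to 0.33. The sign of so small a mean was not stable: it was -0.0029 with centring on the tested probes and -0.075 without replicate 1.

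The NAP1L1 ratio was below that of NAP1L4 by 2.97, 2.28 and 1.71 on replicates 1, 2 and 3. Taken before any normalization, where a centring common to the array drops out, the gap was 2.64, 1.62 and 1.40. On replicate 1 the control signal of NAP1L4 was not well above background, so the size of the gap on that array is not a measured one. NAP1L1 was selected for its low ratio, and the gaps are a description. NAP1L3, on probe A_23_P125717, was not well above background in any channel of any array. Its control signals were 29, 28 and 35 over 26, 23.5 and 27, so no change could be measured for it.

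SET had 2 probes under NM_003011, and both fell. Probe A_23_P217015 had control signals of 103, 85 and 254 and knockdown signals of 124, 136 and 440. Its ratios were -0.83, -0.76 and -0.45, averaging -0.68 ± 0.20 (SD, n = 3), or 0.624 times control, with a 95% interval from -0.98 to -0.38 (limma adjusted p = 0.0250). Probe A_24_P917866 had control signals of 117.5, 94 and 348 and knockdown signals of 156, 140 and 658. Its ratios were -0.60, -0.83 and -0.37, averaging -0.60 ± 0.23 (SD, n = 3), or 0.661 times control, with a 95% interval from -0.91 to -0.29 (limma adjusted p = 0.0332).

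Each SET probe lay below 0 on 3 of 3 arrays and nearest 0 on replicate 3, the array on which NAP1L1 was also nearest 0. This place depended on the centring. With centring on all probes NAP1L1 and A_23_P217015 were nearest 0 on replicate 2, at -1.23 and -0.092, and A_24_P917866 on replicate 1, at -0.095. In the values scaled per channel, control and knockdown of A_23_P217015 did not overlap, at 7.76 to 7.97 against 7.0 to 7.52. Those of A_24_P917866 overlapped, at 7.85 to 8.32 against 7.03 to 7.95. Both tested RHA probes, which did not pass the test, and NAP1L3, which was not well above background, also had no overlap. The share of all tested probes without overlap was not counted, so nothing is read from it. The 2 SET probes differed by -0.24, 0.069 and -0.080, on average -0.082 ± 0.15 (SD, n = 3), within the spread between arrays. An exact sign-flip test, 2-sided, gave p = 0.50. With 3 arrays it cannot fall below 0.25, so it could not have shown a difference between the SET probes. They read the same RNA on the same arrays and are not replicates of each other. The calls depended on the centring: with centring on all probes the SET means were -0.26 and -0.15 and neither passed (limma adjusted p = 0.229 and 0.446). Without replicate 2 neither passed (limma adjusted p = 0.147 and 0.175), and without replicate 1 A_24_P917866 did not (limma adjusted p = 0.0610), nor with no filter on dim probes (limma adjusted p = 0.0561). Over all alternatives the limma adjusted p ran from 0.0019 to 0.229 for A_23_P217015 and from 0.0071 to 0.446 for A_24_P917866.

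The message of ASF1B fell and that of its paralog ASF1A did not pass the test. ASF1B, on probe A_23_P119254, had control signals of 327, 373 and 1431 and knockdown signals of 488, 598 and 2575. Its ratios were -0.40, -0.86 and -0.62, averaging -0.63 ± 0.23 (SD, n = 3), or 0.647 times control, and it fell (95% interval -0.94 to -0.31, limma adjusted p = 0.0310). All 3 arrays lay below 0, with replicate 2 lowest. Per channel, control at 9.40, 9.91 and 10.17 overlapped knockdown at 9.0, 9.04 and 9.55. This call was the least stable of those named: with centring on all probes the mean was 0.038 and its sign turned, and with centring on the tested probes it was -0.28 (limma adjusted p = 0.172). Leaving out replicate 2 gave a limma adjusted p of 0.163 and leaving out replicate 3 one of 0.0575. Agilent's own processed ratio gave -0.75 (limma adjusted p = 0.0715), and with no filter the limma adjusted p was 0.0532. Over all alternatives it ran from 0.0208 to 0.881.

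ASF1A, on probe A_23_P19219, had control signals of 192, 172 and 673 and knockdown signals of 383.5, 425 and 1756. Its ratios were 0.0016, -0.24 and -0.028, averaging -0.090 ± 0.13 (SD, n = 3), and it did not pass the test (limma adjusted p = 0.583, 95% interval -0.36 to 0.17). The groups overlapped, and the mean turned to 0.51 with centring on all probes and to 0.20 with centring on the tested probes. The second ASF1A probe, A_24_P112087, was not well above background on any array.

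The ASF1B ratio was below that of ASF1A by 0.40, 0.62 and 0.59 on the 3 arrays, a mean difference of -0.54 ± 0.12 (SD, n = 3). Before any normalization the differences were -0.38, -0.52 and -0.52. The gap between the paralogs therefore had the same direction on 3 of 3 arrays on both scales, although the sign of each paralog by itself depended on the centring. The exact sign-flip test, 2-sided, gave p = 0.25 on both scales, the smallest it can give with 3 arrays.

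**Figure D3:**
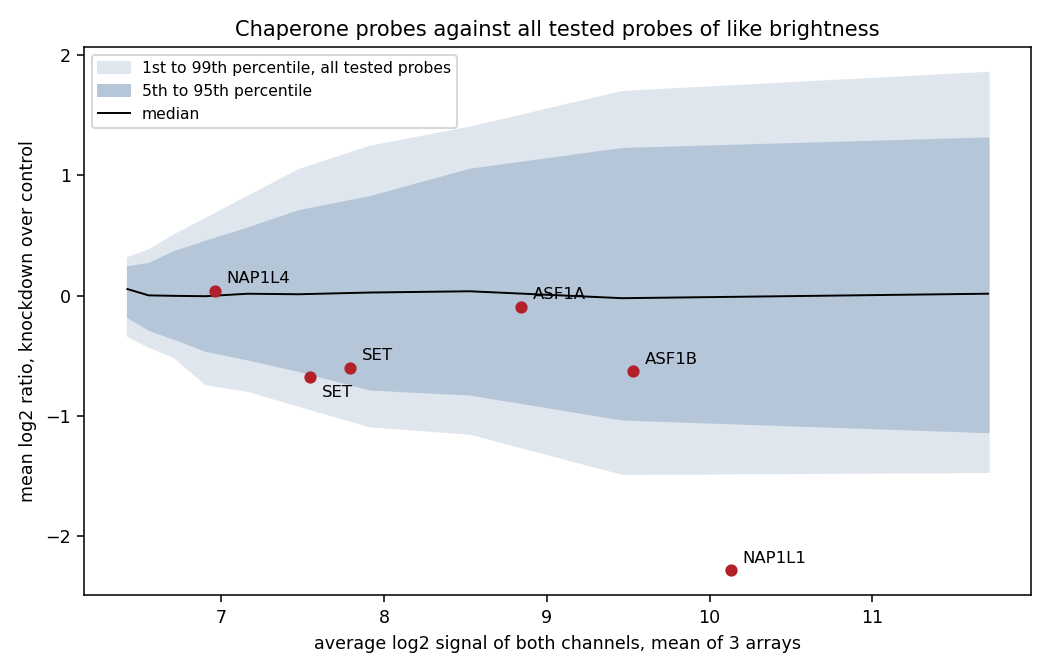
Mean log2 ratio of knockdown over control (vertical axis) against the mean log2 signal of both channels (horizontal axis); the bands span the 1st to 99th and the 5th to 95th percentile of all tested probes in 10 classes of brightness, and the red points are the 6 tested chaperone probes. NAP1L1 lies far below both bands; one SET probe lies at the edge of the inner band, and the other points lie within it.

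Ratios spread more widely among bright probes than among dim ones, so each chaperone probe was also set beside tested probes of like brightness, in 10 equal classes of 1814 or 1815 probes. NAP1L1 had the lowest ratio of 1814 in its class, where the 5th percentile was -1.03 and the next lowest ratio -1.99. That rank was fixed in advance, since NAP1L1 was chosen for its fall and had the lowest ratio of all tested probes. ASF1B, in the same class, ranked 317 of 1814 from the lowest. SET probe A_23_P217015 ranked 62 of 1814, just under the 5th percentile of -0.62 of its class, and A_24_P917866 ranked 176 of 1814. ASF1A ranked 741 and NAP1L4 1005 of 1814 in their own classes. SET and ASF1B thus had means within 0.082 of one another, but SET stood nearer the low edge of its class. These are places in an order, taken at the offset of 50 only, and carry no test.

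By their normalized means the tested chaperones ran from NAP1L1 through SET and ASF1B to ASF1A and NAP1L4, with ASF1B between the 2 SET probes. NAP1L1 was the lowest of the 6 probes on each array. The order of the rest depended on the scale. After normalization both SET probes lay below ASF1B on replicate 1 and above it on replicates 2 and 3, with mean differences of -0.051 ± 0.33 and 0.031 ± 0.22 (SD, n = 3; exact sign-flip p = 1 and 0.75). Before normalization SET probe A_23_P217015 lay below ASF1B on 3 of 3 arrays, with differences of -0.56, -0.31 and -0.028 (exact sign-flip p = 0.25), and A_24_P917866 on 2 of 3. ASF1A minus NAP1L4 was -0.13 ± 0.16 after normalization (SD, n = 3; exact sign-flip p = 0.50) and 0.20 ± 0.17 before it, where ASF1A was the higher on 3 of 3 arrays (SD, n = 3; exact sign-flip p = 0.25). ASF1A exceeded the SET probes by 0.59 ± 0.22 and 0.51 ± 0.14 after normalization, and by 0.77 ± 0.20 and 0.66 ± 0.22 before it (SD, n = 3). NAP1L4 exceeded ASF1B by 0.67 ± 0.13 after normalization and by only 0.27 ± 0.092 before it (SD, n = 3). These last differences had the same direction on 3 of 3 arrays on both scales, with an exact sign-flip p of 0.25 for each, the smallest possible. On replicate 1 the control signal of NAP1L4 was not well above background. The means and sign-flip values for NAP1L4 include that array, where the size of the difference is not a measured one. In all, 15 pairs of probes were set side by side, and sign-flip values were computed for those without NAP1L1. None could have passed a threshold of 0.05.

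NAP1L1 lay further below 0 than the other 5 tested probes on each array. Its ratio was below that of SET probe A_23_P217015 by 1.88, 1.59 and 1.34, and before normalization by 1.73, 1.14 and 1.08. Below ASF1B it lay by 2.31, 1.48 and 1.17, and before normalization by 2.29, 1.45 and 1.11. Below SET probe A_24_P917866 it lay by 2.11, 1.52 and 1.42, and before normalization by 2.00, 1.09 and 1.19. The gaps to these 3 probes were largest on replicate 1 on both scales. NAP1L1 was picked for its low ratio, so they are a description and not a test.

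**Figure D4:**
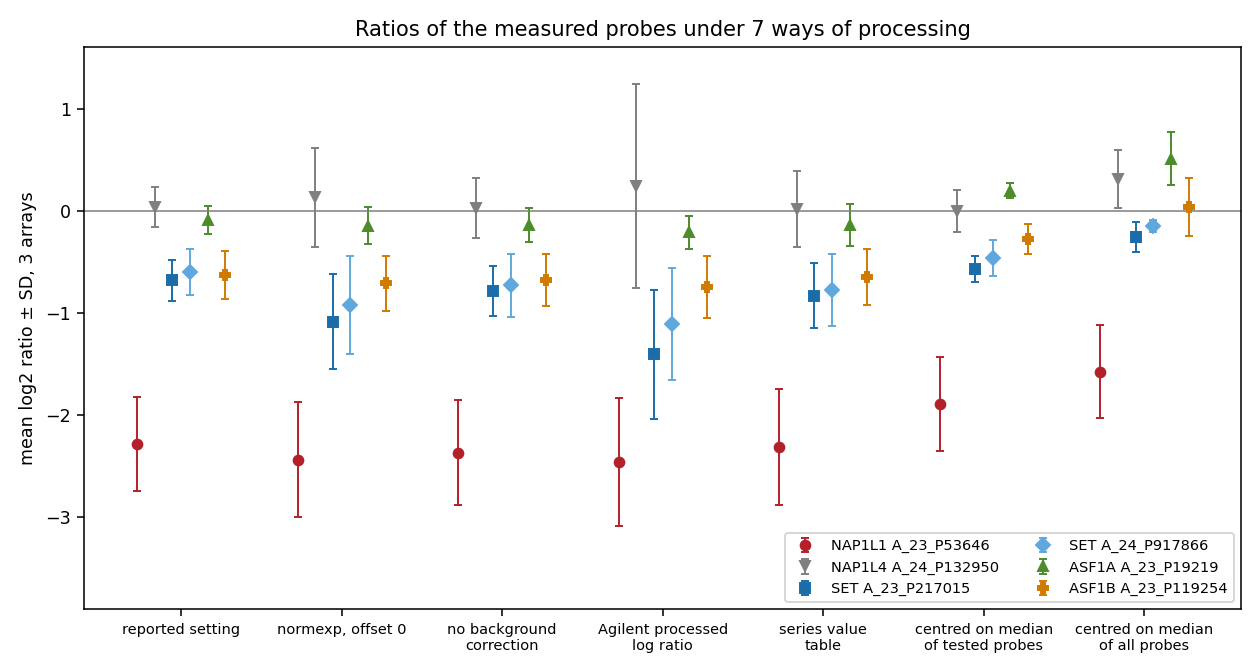
Mean log2 ratio with the SD over 3 arrays (vertical axis) for the 6 tested probes under each way of processing (horizontal axis). NAP1L1 stays lowest, between -2.46 and -1.58; the SET means stay below 0, ASF1B reaches 0.038 and ASF1A 0.51 when arrays are centred on all probes, and NAP1L4 stays near 0 or above.

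The distance of NAP1L1 from 0 moved with the processing and its direction did not. Its mean ratio was -2.44 with an offset of 0, -2.37 with no background correction, -2.46 in Agilent's processed ratio and -2.31 in the authors' series value table. It was -1.89 with centring on the tested probes and -1.58 with centring on all probes, the value nearest 0. The dimmer SET probes moved more in proportion. Their means were -1.08 and -0.92 with an offset of 0 and -1.41 and -1.11 in Agilent's processed ratio, and with no background correction they were -0.78 and -0.73. The authors' series value table gave -0.83 and -0.78 for SET, -0.65 for ASF1B, -0.14 for ASF1A and 0.017 for NAP1L4. On all 3 arrays that table had NAP1L1 below 0, at -2.81, -2.44 and -1.69.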

How the data were processed

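Agilent Feature Extraction 10.9.1.1 gave the authors' intensity values for design 014850, per the file headers, and the submitters' processing notes name limma. The deposited tables also hold flags and a log10 ratio of processed Cy5 over Cy3 signals. The ratios of the authors' series table have no stated scale and are taken here as log2. They followed loess log2 ratios computed without background correction (Pearson's r 0.994 to 0.995, slope of the loess ratios on them 0.92 to 0.94). They therefore run as knockdown over control.

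Median signals were corrected by normexp with offset 50 and normalized by loess within each array (R 4.3.3, limma 3.58.1). Control spots had weight 0, 142 to 150 flagged spots per array were left out, and no probe spot was saturated. A probe was tested if control, knockdown or both were well above background on all 3 arrays. Ratios were fitted with lmFit and eBayes over all tested probes, 2-sided, Benjamini-Hochberg adjusted, threshold 0.05. The test was checked on simulated data. Per-channel values used Aquantile scaling. The number of arrays limits the precision.

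The members and lists were chosen with earlier results of these data known. All member probes are named, with the accession next in the order of falls and the 2 nearest in pattern to NAP1L1. Lists of other histone chaperones, of 5' TOP messages and of cell type markers were given by symbol and were not computed, since no table used here pairs accessions with symbols; for the same reason the cell type was not checked against its markers, and no sequences are shown. Alternatives changed the background correction, normalization, source of values, filter, flags, variance model, array weights and arrays.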

Additional observations from a re-analysis of the deposited data

How the results depend on the processing

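Over 14 alternatives, the 5 tested probes other than NAP1L1 gave 69 values: 53 kept direction and side of the threshold, 11 lost the call and 5 changed sign. With centring on all probes, ASF1A changed sign to 0.51, ASF1B to 0.038 and the RHA probes to 0.26 and 0.068, and NAP1L1 probe A_23_P53646 had -1.58. With centring on the tested probes, NAP1L4 changed sign to -0.0029 and ASF1A to 0.20. NAP1L1 is left out of the counts of fallen member probes that follow, since these data chose it. Fallen member probes numbered 3 in the reported setting. With no filter 10 member probes, NAP1L1 included, entered the fit. No member probe was called fallen with centring on all probes, where 59 of 18143 probes fell. With no filter only SET probe A_23_P217015 was (limma adjusted p = 0.0410), where 997 of 41000 fell. Limma called 0 member probes risen in any of the settings. Without replicate 1 SET probe A_23_P217015 and ASF1B were called fallen, without replicate 3 both SET probes, and without replicate 2 none. Leaving out 1 replicate gave means of -2.53 to -2.07 for A_23_P53646 and -0.075 to 0.095 for NAP1L4. Without replicate 2 limma called 0 probes on the whole array. At an unadjusted p under 0.05 there were then 2228 higher and 2010 lower, 3 of these being member probes other than NAP1L1. Without replicate 1 or 3 limma called 1280 or 1502 risen and 1126 or 1419 fallen.

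Over the whole array, 1763 probes rose and 1569 fell. The counts of risen probes were 2891 with offset 0, 3561 with centring on all probes (59 fallen), 3127 with centring on the tested probes, 2809 with Agilent's processed ratio, 1066 with no filter (997 fallen) and 3001 with an intensity trend (2523 fallen). The dim NAP1L1 probe A_24_P304458 moved from -0.074 to -0.18 with offset 0 and in the series value table, -0.43 with centring on the tested probes and -0.79 with Agilent's ratio. A_32_P82409 moved from 0.012 to 0.11 with offset 0, -0.11 with centring on all probes and -0.42 with centring on the tested probes. The no-filter setting adjusts over 41000 probes and the lower offset pulls dim probes less; beyond this the cause was not tested. Signal over background limits NAP1L3 and the dim probes of NAP1L1 and ASF1A. The fit is already paired, since each ratio sets knockdown against control of 1 array, and the arrays form 1 group, so no further replicate block could be fitted.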
